A study of Mus musculus with 6 samples.

Results

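The transcripts described here are those of 9 genes that make, store or mark TGF-β in the matrix of the mouse thoracic aorta. They are the 3 ligand genes Tgfb1, Tgfb2 and Tgfb3, the 4 genes of the latent TGF-β binding proteins (LTBPs) Ltbp1, Ltbp2, Ltbp3 and Ltbp4, the gene of the cell surface anchor GARP, Lrrc32, and Tgfbi, which encodes a secreted matrix protein. They were chosen by name and not by a cut on their values, though earlier results of these data were known. They were 9 of the 52636 genes in the deposited count table, and all 9 had enough reads to be tested. Bulk RNA-seq of whole thoracic aortas at 12 weeks of age gave 4 libraries of untreated C57BL/6J mice (WT) and 2 of Tgfbr1/2iSMCKO mice (KO). The KO mice carried loxP-flanked alleles of Tgfbr1 and Tgfbr2 (both f/f), Myh11-CreERT2 and mT/mG, a color reporter of recombination, and received intraperitoneal tamoxifen, 2 mg per day over 5 days, from 11 weeks of age. Per the study's methods only males were used, since the Cre transgene lies on the Y chromosome, and Cre is expressed from Myh11 in smooth muscle cells (SMCs), so other cells of the wall keep their receptors. The WT mice lacked each of these alleles and the tamoxifen, so allele, Cre and drug cannot be told apart here. The study counts its replicates as mice, so each library was taken as a separate mouse.

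TGF-β is secreted in an inactive form. Each precursor is cut by furin into a mature ligand and a propeptide that stays wrapped around it, and in most matrix-producing cells the propeptide is disulfide-bonded to an LTBP, which is then laid down on fibronectin and fibrillin microfibrils. Integrins, thrombospondin and proteases release the ligand from this store, after which it signals through the TGFBR1 and TGFBR2 kinases and SMAD transcription factors. In the aorta this store lies among the elastic laminae and SMCs, and human variants in ligand, receptor and SMAD genes are known causes of heritable aortic disease. The comparison asks what happened to the transcripts of the supply side of the pathway within days of removing its receptors from SMCs.

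The sequences just before the start sites of the latent binding protein genes that fell, Ltbp1 and Ltbp3, and of Tgfbi are shown because these genes are the ones whose differences the results turn on. Each line gives 250 bases before a RefSeq transcription start on GRCm38.p6, 5′ to 3′ on the + strand, and capitals mark CAGAC or its reverse complement GTCTG, a core motif bound by SMAD proteins. The windows are chr17:75005279-75005528 and chr17:75178531-75178780 for the 2 starts of Ltbp1, chr19:5740650-5740899 for Ltbp3 and chr13:56609336-56609585 for Tgfbi.
Ltbp1 start 1: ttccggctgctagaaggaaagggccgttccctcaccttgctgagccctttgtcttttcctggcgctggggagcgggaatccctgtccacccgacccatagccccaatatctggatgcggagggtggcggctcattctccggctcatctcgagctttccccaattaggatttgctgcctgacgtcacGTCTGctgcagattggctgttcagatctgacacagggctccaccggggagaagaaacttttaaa
Ltbp1 start 2: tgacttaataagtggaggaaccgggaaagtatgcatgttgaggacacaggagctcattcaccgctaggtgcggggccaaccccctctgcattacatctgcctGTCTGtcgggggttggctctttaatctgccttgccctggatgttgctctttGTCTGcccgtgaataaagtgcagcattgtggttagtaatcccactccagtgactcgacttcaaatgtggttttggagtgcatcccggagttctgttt
Ltbp3: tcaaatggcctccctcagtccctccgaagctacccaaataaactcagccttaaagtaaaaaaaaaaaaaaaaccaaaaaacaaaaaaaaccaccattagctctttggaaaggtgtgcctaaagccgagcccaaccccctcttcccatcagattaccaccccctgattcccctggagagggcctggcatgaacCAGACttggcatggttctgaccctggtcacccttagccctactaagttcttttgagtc
Tgfbi: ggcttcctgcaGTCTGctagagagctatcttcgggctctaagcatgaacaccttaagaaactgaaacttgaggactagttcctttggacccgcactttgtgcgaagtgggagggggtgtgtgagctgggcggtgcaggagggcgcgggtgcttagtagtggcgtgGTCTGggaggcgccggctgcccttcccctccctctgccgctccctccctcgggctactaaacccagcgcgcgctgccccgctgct
The motif occurred once before the Ltbp3 start, at position -58 (counted from the start), once before the first Ltbp1 start, at -64, at -148 and -97 before the second Ltbp1 start, and at -239 and -85 before Tgfbi. The first Ltbp1 window also holds 1 cAMP response element, TGACGTCA. The RefSeq promoters used here covered 7 of the 9 genes, in 10 windows, and the motif was present 2 times each before Tgfb2 and Ltbp2 and 0 times before Tgfb1 and in the 3 windows of Ltbp4. Over 32851 mouse promoters read at the same length and on both strands, 42.2% held CAGAC and 1.55% held TGACGTCA, so a match to the first is common. A match describes these letters and does not show a bound site.

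Across the 9 genes, Ltbp3 and Ltbp1 fell in KO, none rose, and none passed the call used by the study, which asks for more than a 2-fold change besides an adjusted p below 0.05. The background for these counts, over 17537 genes tested with DESeq2, was 4.54% of genes lower, 5.53% higher and 10.1% changed in either direction at an adjusted p under 0.05, and 5.49% called with the fold threshold. With edgeR the same 2 genes passed, against 6.18% of all genes. With KO-1 as the only KO library 3 of the 9 genes passed, Tgfb1 besides these 2, against 7.02% of all genes, and with KO-2 as the only one 5 passed, adding Ltbp2, Ltbp4 and Tgfbi, against 14.9%. Ltbp2 and Ltbp4 also lay below every WT library in both KO libraries, Tgfb3 and Lrrc32 lay above, and Tgfb1, Tgfb2 and Tgfbi overlapped WT. Among all genes tested, both KO libraries lay below every WT library for 16.3%, above for 17.6% and outside the WT range on the same side for 33.9%. The median log2 fold change of the 9 genes was -0.34, against 0.01 over all genes tested. The counts by library show where the 2 KO libraries agreed and where they did not.

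**Figure D1:**
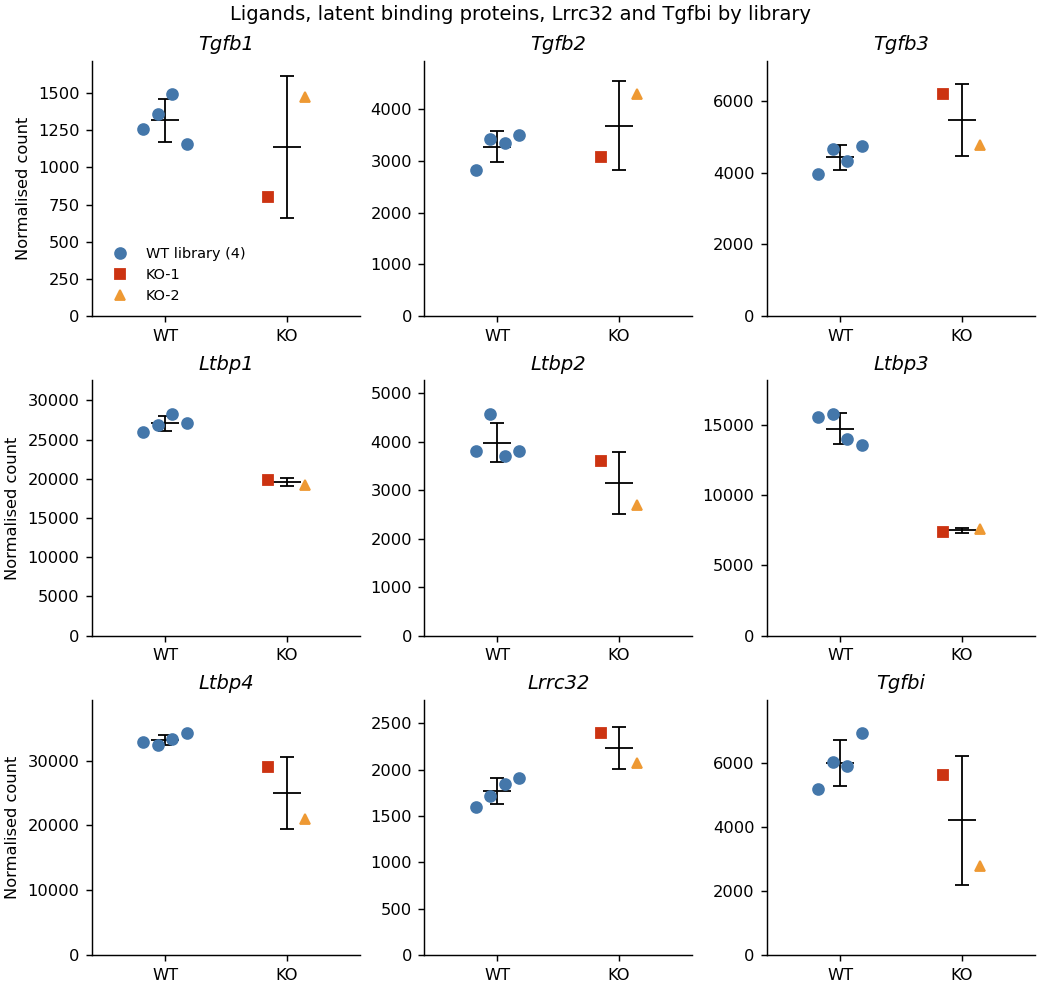
Normalised counts (counts divided by a DESeq2 size factor, y axes from 0) of the 9 genes in 4 WT libraries (circles), KO-1 (square) and KO-2 (triangle), with horizontal bars for group means and whiskers for 1 SD. Both KO points lie close together and below WT for Ltbp1 and Ltbp3, whereas for Tgfb1 and Tgfbi 1 KO point lies within the WT range and the other below it.

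Of the ligands, Tgfb1 (ENSMUSG00000002603.15, GRCm38 chromosome 7, 25687002 to 25705077, + strand) encodes the best studied isoform, which restrains inflammation and drives matrix synthesis. It had 1257, 1355, 1490 and 1158 normalised counts in the WT libraries, in the order of their numbers, and 798 in KO-1 and 1473 in KO-2. KO-1 was the lowest library and KO-2 the second highest, so the groups overlapped. The WT mean was 1315 ± 142 (SD, n = 4) and the KO mean 1135 ± 477 (SD, n = 2), with a log2 fold change of -0.21 (95% interval -0.71 to 0.28, adjusted p = 0.70). The estimate took its direction from KO-1: it was -0.71 (adjusted p = 0.0175) with KO-1 as the only KO library and 0.17 (adjusted p = 0.694) with KO-2 as the only one.

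Tgfb2 (ENSMUSG00000039239.14, chromosome 1, 186622792 to 186705989, - strand) encodes an isoform whose loss of function causes a form of Loeys-Dietz syndrome. It had 2835, 3433, 3347 and 3513 normalised counts in WT, 3084 in KO-1 and 4291 in KO-2. KO-1 lay within the WT range and KO-2 was the highest library. The log2 fold change was 0.17 (95% interval -0.21 to 0.55, adjusted p = 0.695), and it was -0.08 with KO-1 alone and 0.39 with KO-2 alone.

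Tgfb3 (ENSMUSG00000021253.7, chromosome 12, 86056745 to 86079041, - strand), the isoform needed for palate fusion and also mutated in Loeys-Dietz syndrome, had 3961, 4659, 4337 and 4743 in WT, 6180 in KO-1 and 4766 in KO-2. Both KO libraries were above WT, KO-2 by only a small margin over WT-4. The means were 4425 ± 355 (SD, n = 4) and 5473 ± 1000 (SD, n = 2), a log2 fold change of 0.31 with a 95% interval of -0.04 to 0.66 (adjusted p = 0.316). Thus no ligand transcript passed the test with all 6 libraries.

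The LTBPs share a chain of EGF-like repeats and TB domains, and LTBP-1, LTBP-3 and LTBP-4 can carry latent TGF-β, whereas LTBP-2 does not bind it. Ltbp3 (ENSMUSG00000024940.10, chromosome 19, 5740904 to 5758532, + strand), in which human variants have been linked to dental and skeletal anomalies and thoracic aortic disease, had the strongest difference. Its counts were 15541, 15803, 13983 and 13578 in WT and 7383 and 7620 in KO-1 and KO-2. Both KO libraries lay far below the lowest WT library and close to each other. The means of 14726 ± 1110 (SD, n = 4) and 7501 ± 167 (SD, n = 2) put KO at 50.9% of WT, a log2 fold change of -0.97 (SE 0.15, 95% interval -1.27 to -0.67, adjusted p = 2.50e-08). The fold change lay just short of the threshold of 2, and crossed it without WT-4 or with the replicate number as a block. Removing a trend with GC content took the log2 fold change to -0.83. Relative to the -0.105 by which that correction moved the median of all genes, it was -0.72.

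Ltbp1 (ENSMUSG00000001870.15, chromosome 17, 75005568 to 75392512, + strand), the founding member of the family and a main carrier of TGF-β1, had 26021, 26859, 28288 and 27087 normalised counts in WT. It had 19895 in KO-1 and 19232 in KO-2, again below all WT libraries and nearly equal. KO stood at 72.3% of WT, from means of 27064 ± 936 (SD, n = 4) and 19563 ± 469 (SD, n = 2), with a log2 fold change of -0.47 (SE 0.14, 95% interval -0.74 to -0.20, adjusted p = 0.0126). The log2 fold change was -0.50 to -0.43 over 14 alternative fits. Relative to the median of all genes it was -0.39 once a GC trend was removed. Its adjusted p ran from 0.00219 to 0.455. The difference missed 0.05 with total counts as scaling (0.071), with edgeR without a filter (0.0745) and with the replicate number as a block (0.455).

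Ltbp4 (ENSMUSG00000040488.17, chromosome 7, 27305136 to 27337692, - strand) encodes an LTBP that also works with fibulin-5 in elastic fiber assembly, and its WT libraries were the tightest of the 9 genes, at 32834, 32377, 33349 and 34228 (coefficient of variation 2.39%). KO-1 had 28935 and KO-2 had 21038, both below WT and well apart from each other. With a log2 fold change of -0.41 (95% interval -0.75 to -0.07) Ltbp4 did not pass, at an adjusted p of 0.123. It was -0.66 (adjusted p = 3.86e-05) with KO-2 as the only KO library and -0.19 (adjusted p = 0.512) with KO-1 as the only one. Removing a trend with GC content took it to -0.13, or -0.03 relative to the -0.105 by which that correction moved the median of all genes, so the estimate was then close to 0.

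Ltbp2 (ENSMUSG00000002020.15, chromosome 12, 84783212 to 84876532, - strand), a microfibril component that does not store TGF-β, had 3819, 4581, 3718 and 3811 in WT, 3600 in KO-1 and 2703 in KO-2. KO-1 was only just under the lowest WT library. The log2 fold change was -0.34 (95% interval -0.71 to 0.03, adjusted p = 0.288), and it was -0.56 (adjusted p = 0.0295) with KO-2 alone, -0.13 (adjusted p = 0.78) with KO-1 alone and -0.08 relative to the median of all genes once a GC trend was removed. All 4 LTBP estimates thus stayed below 0 in each of the 14 alternative fits, but only those of Ltbp3 and Ltbp1 passed with each KO library taken alone, with adjusted p-values of 4.45e-07 and 0.0379 for KO-1 and 6.90e-07 and 0.00576 for KO-2.

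**Figure D2:**
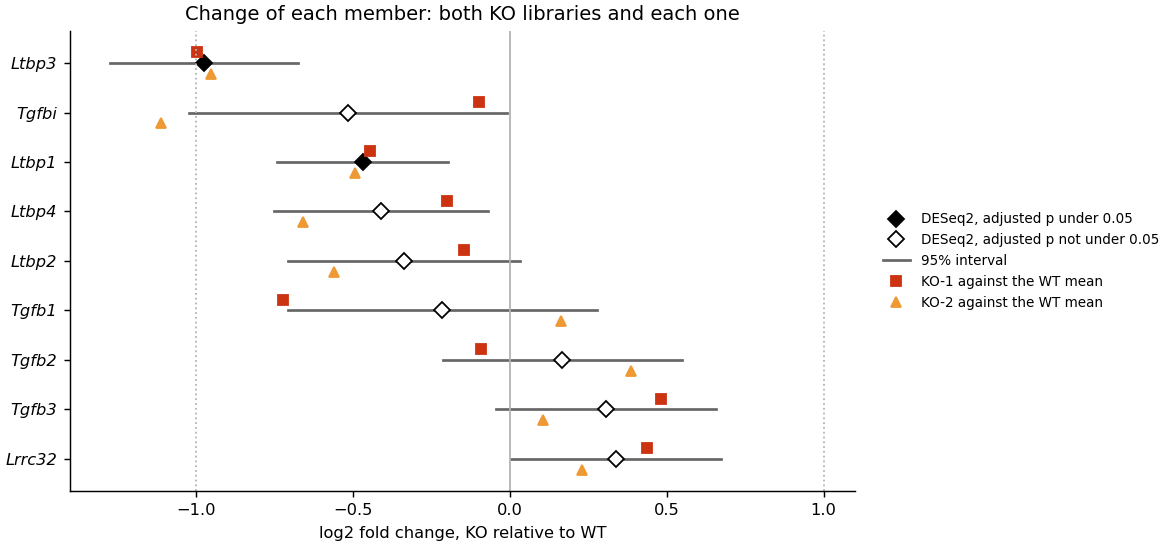
Log2 fold change of KO relative to WT (x axis) for each gene, as the DESeq2 estimate with its 95% interval (diamond and line, filled where the adjusted p was under 0.05) and as each KO library against the WT mean (square KO-1, triangle KO-2). Dotted lines mark a 2-fold change, and only Ltbp3, at -0.97, and Ltbp1, at -0.47, are filled.

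The 2 KO libraries differed by 0.05 on the log2 scale for Ltbp1 and Ltbp3, against a median of 0.38 over all genes tested. That median includes genes with low counts. Both genes were singled out for passing the test, which favors genes whose KO libraries agree, so their small gaps add no support. For the other 7 genes the gap ran from 0.21 for Lrrc32 to 1.01 for Tgfbi. Among these 7, KO-1 was lower than KO-2 for Tgfb1 and Tgfb2 and higher for Tgfb3, Ltbp2, Ltbp4, Lrrc32 and Tgfbi. The libraries differed elsewhere too. Libraries held 19650983 to 28860598 counts. The mitochondrial share was 11.7% in KO-2, against 3.38% in KO-1 and 2.62% to 4.44% in WT, and KO-2 was the library with the highest summed white adipocyte, brown adipocyte and red blood cell markers. The part of these differences in the results was not tested.

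Lrrc32 (ENSMUSG00000090958.2, chromosome 7, 98489283 to 98502181, + strand) encodes GARP, which holds latent TGF-β at the surface of regulatory T cells, platelets and endothelial cells. It had 1600, 1711, 1846 and 1914 normalised counts in WT, 2394 in KO-1 and 2076 in KO-2. Both KO libraries were above all WT libraries. The log2 fold change of 0.34 (95% interval 0.005 to 0.673) had a p of 0.0468 before and 0.221 after adjustment over all genes, so the difference did not pass, and its adjusted p ran from 0.125 to 0.547 over the alternatives. Endothelial markers had a summed normalised count of 12730, 16970, 22200 and 22890 in WT, in the order of library numbers. Their sum was 32430 in KO-1 and 31380 in KO-2, with 4 of 8 markers higher in KO and none at 0. The marker Egfl7 went the other way, with a log2 fold change of -0.48 that did not pass (adjusted p = 0.134). Platelet markers summed to 387 to 546 in WT, 810 in KO-1 and 969 in KO-2, with 2 of 7 higher. Regulatory T cell markers summed to 230 to 281 in WT and 280 and 268 in KO, nearly all of it Ikzf2, while the defining gene Foxp3 was at 0 in 3 of 4 WT libraries and had 4.92 normalised counts at most. In bulk tissue, more cells of a type and more RNA per cell cannot be told apart, and the part of endothelial cells in the Lrrc32 difference was not tested.

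Tgfbi (ENSMUSG00000035493.10, chromosome 13, 56609523 to 56639562, + strand) encodes TGFBIp, a matrix protein that binds collagens and integrins and was named for its induction by TGF-β. Its counts were 5208, 6035, 5907 and 6951 in WT, 5636 in KO-1 and 2791 in KO-2. KO-1 sat inside the WT range, and KO-2 was far below every other library. The log2 fold change was -0.52 (95% interval -1.02 to -0.01, adjusted p = 0.22). KO-2 alone gave -1.11 (adjusted p = 3.36e-06), past the call, and KO-1 alone gave -0.09 (adjusted p = 0.885), so the difference rests on KO-2. Macrophages are a known source of this protein, and 7 of 9 macrophage markers were higher in KO, none was at 0, and their sum was 9539 to 11550 in WT, 16070 in KO-1 and 18510 in KO-2. Their part in the Tgfbi values was not tested.

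Because the genes differ in length, their levels were compared per kilobase of exon. In WT, Ltbp4 was the highest at 5136 ± 123 normalised counts per kb (SD, n = 4), followed by Ltbp1 at 2531 ± 87.5, Ltbp3 at 1624 ± 122, Tgfbi at 1598 ± 190 and Tgfb3 at 1308 ± 105. Tgfb2 at 567 ± 52.8, Ltbp2 at 487 ± 49.1, Lrrc32 at 377 ± 29.9 and Tgfb1 at 261 ± 28.1 were the lower group. Neighbours whose WT ranges overlapped were Ltbp3 and Tgfbi, Tgfbi and Tgfb3, and Tgfb2 and Ltbp2. Compared within each WT library, Tgfbi always stood above Tgfb3, and Tgfb2 above Ltbp2. The order of Ltbp3 and Tgfbi changed between WT libraries and is therefore not set. Read by the longest transcript instead of all exons, the order differed only in that Tgfb1 stood above Lrrc32. In KO the mean of Tgfb3, 1618 per kb, stood above those of Tgfbi at 1117 and Ltbp3 at 827, and Lrrc32 at 477 stood above Ltbp2 at 385.

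Summed per kilobase, the 4 LTBP transcripts reached 9695, 9825, 9802 and 9793 in WT, 7592 in KO-1 and 6224 in KO-2. The WT libraries had an SD of only 57.5, both KO libraries lay below them, and the KO mean was 0.706 of the WT mean. The 3 ligands summed to 1910, 2239, 2156 and 2238 in WT and 2518 and 2442 in KO, 1.16 times the WT mean, with both KO libraries above WT although no ligand passed by itself. The LTBPs that carry latent TGF-β, summed over Ltbp1, Ltbp3 and Ltbp4, stood to the ligands as 4.83, 4.14, 4.34 and 4.17 in WT and as 2.84 and 2.41 in KO, 0.601 of the WT mean. By the longest transcript this last ratio was 0.613 of WT. Ltbp4 was the largest part of these LTBP sums, at 5136 per kb in WT and 3866 in KO. It did not pass by itself, and its log2 fold change was -0.03 relative to all genes once a GC trend was removed. The exact permutation test of 4 against 2 libraries has 15 splits. Its two-sided p, taken as 2 times that of the smaller tail, cannot go below 0.133. The LTBP sum, the ligand sum and the ratio each reached this p.

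**Figure D3:**
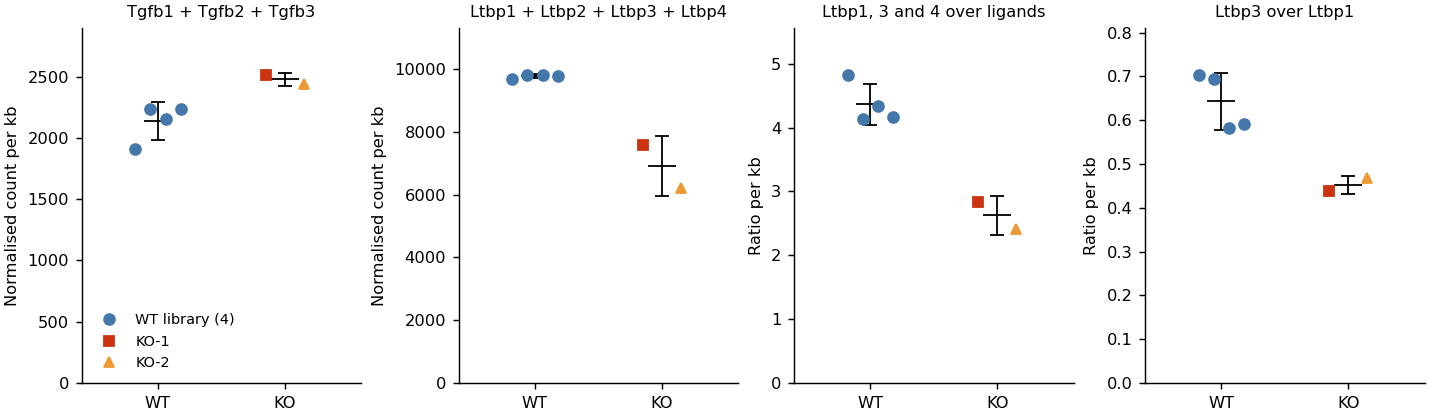
Summed normalised counts per kb of exon for the ligands and the LTBPs (y axes from 0), and 2 ratios per kb, in 4 WT libraries (circles), KO-1 (square) and KO-2 (triangle), with group means and 1 SD. The LTBP sum is 9695 to 9825 in WT and 7592 and 6224 in KO, and the ratio of Ltbp1, Ltbp3 and Ltbp4 to the ligands is 4.14 to 4.83 in WT and 2.84 and 2.41 in KO.

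Within the family, Ltbp3 took a smaller share in both KO libraries than in any WT library. It held 17.7%, 17.7%, 15.7% and 15.3% of LTBP transcripts per kb in WT, 10.7% in KO-1 and 13.5% in KO-2 (exact permutation p = 0.133, the smallest possible). The ratio of Ltbp3 to Ltbp1 was 0.704, 0.694, 0.583 and 0.591 in WT and 0.438 and 0.467 in KO, so Ltbp3 was lower relative to Ltbp1 in both KO libraries, whereas the shares of Ltbp1, Ltbp2 and Ltbp4 overlapped between groups. Among the ligands Tgfb3 was the most abundant transcript per kb, at 61.2% ± 1.31 (SD, n = 4) in WT, 72.6% in KO-1 and 57.7% in KO-2, on either side of WT. Tgfb1 made up 12.3% ± 1.5 in WT, 6.29% in KO-1 and 12.0% in KO-2, so the ligand make-up of KO-1 stood apart and that of KO-2 did not do so for Tgfb1. These shares depend on the length used. By the longest transcript the WT mean of Tgfb1 was 511 per kb instead of 261, while that of Tgfb3 stayed at 1308. The share of Tgfb1 is then larger and that of Tgfb3 smaller.

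Other genes of the pathway were taken from 5 lists by role. The background for the counts of each list is 4.54% of all genes tested lower and 5.53% higher at an adjusted p under 0.05. Of the matrix partners of the latent complex, 16 of 17 genes were tested, 3 were lower and 2 higher, with a median log2 fold change of -0.01. Fn1, fibronectin, fell from 52164 to 63223 normalised counts in WT to 33144 and 37469 in KO (log2 fold change -0.75, adjusted p = 0.000118), and Mfap4, a microfibril-associated protein, fell by 0.86 on the log2 scale (adjusted p = 3.66e-06). Emilin1, an elastic fiber glycoprotein that holds back TGF-β precursor processing and was named after its value was seen, fell by 0.86 as well (adjusted p = 0.000503). Adamtsl2, whose product binds LTBP-1 and fibrillin-1, rose from 514 to 772 normalised counts in WT to 3805 and 2367 in KO, a log2 fold change of 2.20 (adjusted p = 1.28e-16), and Fbln2, fibulin-2, rose by 0.91 (adjusted p = 0.000289). Fbn1, the fibrillin to which LTBPs attach, had a log2 fold change of 0.41 (adjusted p = 0.0746) and was named after its value was seen.

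Of the genes that process or release latent TGF-β, 16 of 19 were tested, 3 were lower and 2 higher (median 0.18). Thbs1, thrombospondin-1, an activator of the latent complex, rose from 399, 864, 955 and 1186 normalised counts in WT to 6142 and 4204 in KO (log2 fold change 2.60, adjusted p = 2.59e-12). Pcsk6, a furin-related convertase, rose by 0.90 (adjusted p = 0.000497), while Furin, named after its value was seen, had 2408 to 2719 in WT and 2336 and 2224 in KO (adjusted p = 0.661). The integrin β subunits that pair with αv fell for Itgb5 (log2 fold change -0.95, adjusted p = 5.34e-05) and Itgb3 (-0.56, adjusted p = 0.0282), the latter not with edgeR (0.0722) or with KO-1 as the only KO library (0.28). Bmp1, a protease that cuts LTBP-1 and was named after its value was seen, was also lower (-0.56, adjusted p = 0.0318), again not with edgeR (0.0782) or with KO-1 alone (0.248).

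The receptor genes were read at the level of the whole gene, which does not check the deletion, because Cre removes only part of each. Tgfbr1 had a log2 fold change of 0.20 (adjusted p = 0.64) and Tgfbr2 of -0.09 (adjusted p = 0.845), and of the 6 receptors and co-receptors 1 passed: Bambi, a pseudoreceptor that dampens signaling, was lower (-0.64, adjusted p = 0.0397), though not with edgeR (0.0826), with KO-1 alone (-0.49, 0.309) or with the replicate number as a block (0.554). Of 4 small proteoglycans that bind TGF-β, 1 passed: Bgn, biglycan, was lower (-0.70, adjusted p = 0.0394), with 159244 to 195833 normalised counts in WT, 74905 in KO-1 and 141525 in KO-2. This call rests on KO-1: KO-1 alone gave -1.22 (adjusted p = 4.77e-10) and KO-2 alone -0.31 (0.248), and it was lost with edgeR (0.133). Of 17 genes known to be induced by TGF-β, 6 were lower and 1 higher (median -0.18). Pmepa1, a feedback inhibitor (-1.45, adjusted p = 5.91e-14), Nox4, an NADPH oxidase (-1.42, adjusted p = 1.81e-09), and the matricellular protein genes Ccn2 (-1.28, adjusted p = 7.64e-06) and Ccn1 (-1.42, adjusted p = 5.12e-05) were among those that fell. Cdkn1a, a cell cycle inhibitor, rose by 1.03 (adjusted p = 2.29e-05), and Postn, periostin, was lower (-0.71, adjusted p = 0.00125). The median of the 17 induced genes was -0.18. The estimates of Ltbp3 (-0.97), Tgfbi (-0.52), Ltbp1 (-0.47), Ltbp4 (-0.41), Ltbp2 (-0.34) and Tgfb1 (-0.21) lay below it. Those of Tgfb2 (0.17), Tgfb3 (0.31) and Lrrc32 (0.34) lay above it, and these gaps were not tested. The 5 induced genes that fell past the call lie further from 0 by their selection.

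**Figure D4:**
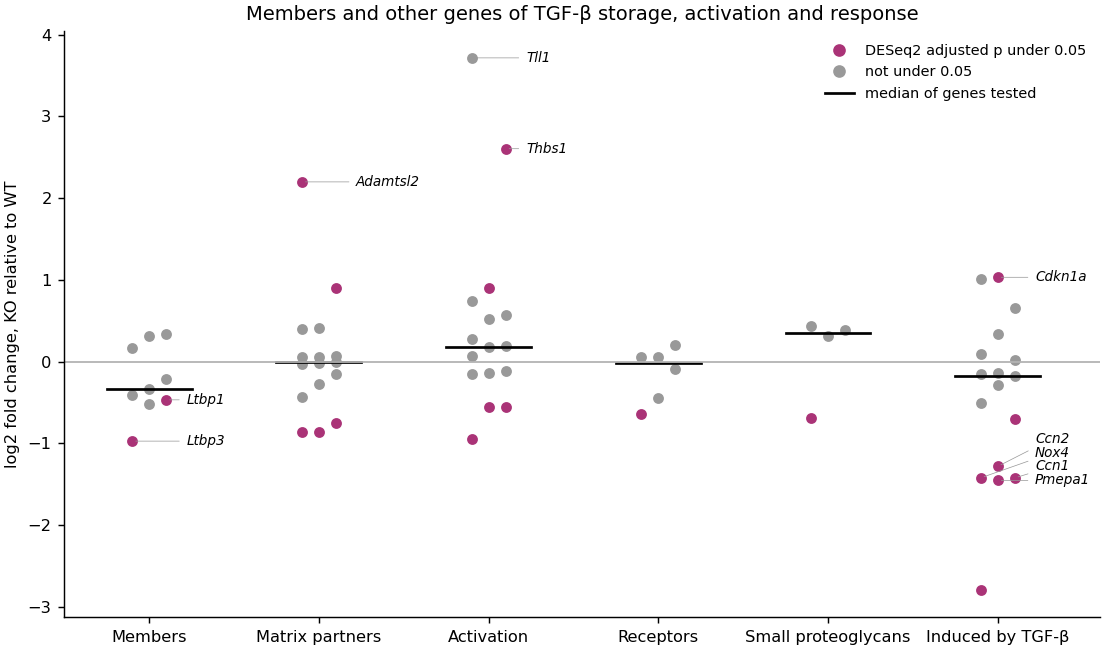
Log2 fold change of KO relative to WT (y axis) for each tested gene of the 9 members and of the 5 pathway lists (x axis), colored where the DESeq2 adjusted p was under 0.05, with a bar at the median. The medians are -0.34 for the members, -0.01 for matrix partners, 0.18 for activation and -0.18 for induced genes, and the topmost point, Tll1, rests on 15.9 normalised counts at most.

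By the measure of likeness used, the root mean square difference over the 6 libraries of log2 normalised counts less the WT mean, the protein-coding genes nearest to Ltbp3 out of 11113 were Plpp2 (0.04), Pdlim7 (0.04) and Fmnl3 (0.06). For Ltbp1 they included Scpep1 and Tbx18 (each 0.04), and for Lrrc32 they were Clint1 (0.01), Rnf141 and Timp3 (each 0.02). Tgfbi had the least close neighbours together with Tgfb1, at 0.07 for Rsrp1, 0.08 for Fam102b and 0.09 for Acvrl1, a TGF-β family type I receptor of endothelial cells. Those of Tgfb1 were Zbtb7a (0.08), Iglon5 (0.09) and Dlgap4 (0.10). Over 6 libraries this is a description of similar values.

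Markers of SMCs, the main cells of the labelled tissue, were abundant in each library, and those of surrounding tissues differed between groups. The SMC markers summed to 912600 to 1072000 normalised counts in WT, 873700 in KO-1 and 1028000 in KO-2, and 0 of 9 passed the test. The sum hides markers that went opposite ways. Both KO libraries lay below every WT library for Tagln, Cnn1 and Smtn, and above for Myh11, Synpo2 and Des. Acta2, Lmod1 and Myocd overlapped. Among all genes tested, 16.3% lay below every WT library in this way and 17.6% above. Fibroblast markers, from cells that also make LTBPs, summed to 184700 to 203500 in WT, 228000 in KO-1 and 259800 in KO-2, with 2 of 8 higher. Cardiac muscle markers stood at 25960 in KO-1 against 804 to 1899 in WT and 2817 in KO-2, whereas white adipocyte markers stood at 37810 in KO-2 against 2547 to 4894 in WT and 5392 in KO-1. Summed brown adipocyte markers (1196 to 1515 in WT, 3972 and 12970 in KO), red blood cell markers (859 to 5990 in WT, 11080 and 61680 in KO), mesothelial markers (228 to 468 in WT, 926 and 2517 in KO) and lymphocyte markers (29.6 to 74.7 in WT, 85.7 and 355 in KO) were all higher in both KO libraries. The brown adipocyte sum of KO-1 was mostly Dio2 (3153), with Ucp1 at 40.2 in KO-1 and 0 to 123 in WT. Of the 6 lymphocyte markers tested, 0 passed. The part of other cell types in the values of the 9 genes was not tested.

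**Figure D5:**
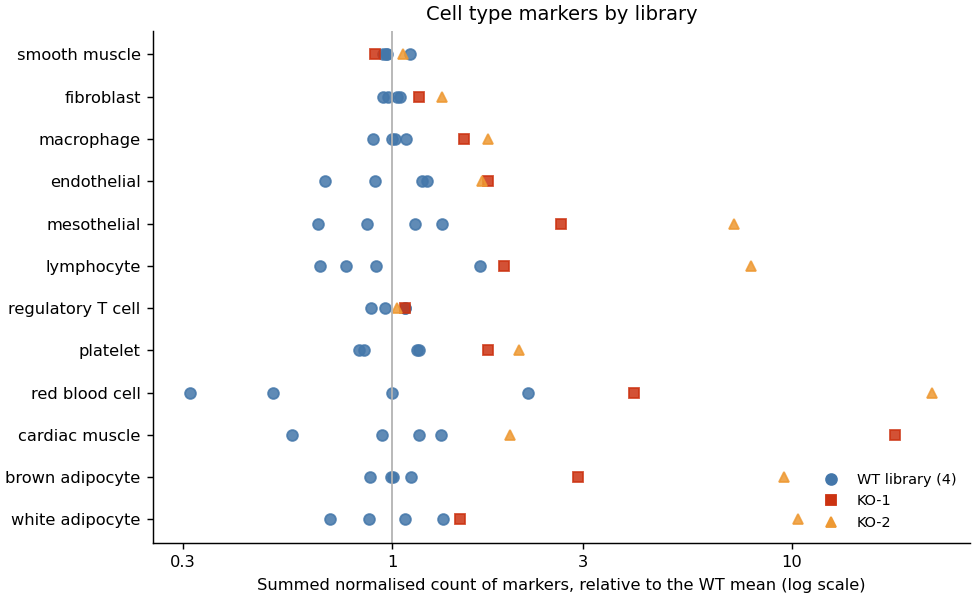
Summed normalised counts of markers of 12 cell types (y axis), each relative to its WT mean (x axis, log scale), in 4 WT libraries (circles), KO-1 (square) and KO-2 (triangle). The SMC marker sum sits near 1 in all libraries. Cardiac muscle markers are highest in KO-1, and adipocyte, red blood cell and mesothelial markers are highest in KO-2.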

How the data were processed

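Bulk RNA-seq was made from total RNA of thoracic aortas without hemorrhagic lesions. The authors trimmed reads with Trim Galore, mapped them to GRCm38 with HISAT2 and quantified genes with StringTie on GENCODE M15. What they deposited is a table of estimated counts, in whole numbers and with no scaling for depth. How coverage was turned into counts, and whether strand was used, is not given in the sources used here. Table columns carry codes, and their match to the labels was inferred from the codes: the code numbered 1 to 4 was read as WT and the one numbered 1 to 2 as KO. Gene positions came from GENCODE M21, which held 52489 of the identifiers, and promoters from RefSeq on GRCm38.p6.

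DESeq2 1.42.0 in R 4.3.3 compared 2 KO with 4 WT libraries by the Wald test in a model of group alone, with its default scaling and filtering and with Benjamini-Hochberg adjustment over 17537 genes. On simulated data DESeq2 recovered changed genes but also passed more unchanged ones than its adjustment allows, so an adjusted p near 0.05 is weak. Of its 223 simulated calls at an adjusted p under 0.05, 49 were false (22.0%), against 13 of 173 (7.5%) for edgeR. DESeq2 recovered 76% of simulated 2-fold changes and edgeR 62%. Normalised counts are counts divided by size factors, with a pseudocount of 0.5 for log2 values of single libraries. Alternatives were edgeR 4.0.16 (quasi-likelihood) with and without a filter, a minimum of 10 counts in 2 libraries, TMM or total counts as scaling, size factors without mitochondrial genes, removal of a GC trend, a test against a 2-fold change, the replicate number as a block, and leaving out each library. With 1 KO library left, it is assumed to vary as WT does. Levels between genes are per kb of the union of exons. Ratios were compared with exact permutation tests. Intervals are at 95%.

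The 9 genes, the lists and the tests were chosen with earlier results of these data known. The rule for named genes took all 9 members and Tgfbr1 and Tgfbr2, every pathway gene past the call, the 3 others of each list with the smallest adjusted p at most, and for each member the 3 genes of most similar values among those averaging 100 or more normalised counts. A few genes that the rule selects are not reported here. No replicate pair differed by as little as sampling noise.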

Additional observations from a re-analysis of the deposited data

Results flagged for a closer look

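Among 31 results checked in the 4 WT libraries, 3 had a library apart from the rest, judged by Dixon's 95% critical value for the gap to the nearest library as a share of the whole range. Chance gives about 1.55 such results. WT-2 was high for Ltbp2, with 4581 normalised counts where the others had 3718 to 3819, a gap of 0.883 of the range. The share of Ltbp2 among the 4 LTBP transcripts per kb was also high in WT-2, at 5.7% against 4.64% to 4.81% (0.831). Read by the longest transcript, the summed ligands were low in WT-1, at 2213 normalised counts per kb against 2515 to 2575 (0.834). No explanation was tested for these values.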

How the results depend on the processing

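Genes called over the whole table numbered 963, and 633 with edgeR, 115 in the test against a 2-fold change, 562 with the replicate block and 636 to 1282 when a library was left out. Of the 9 genes, 2 passed the adjusted p, and 1 with edgeR without a filter, 1 with total counts as scaling, 0 in the test against a 2-fold change (a stricter null), 1 with the replicate block and 2 to 5 when a library was left out, where 5 came without KO-1. The number past the call was 0, and 1 with the replicate block (Ltbp3, -1.06) and 0 to 1 when a library was left out (Ltbp3 without WT-4, Tgfbi without KO-1). Pathway list genes past the adjusted p numbered 19, and 3 in the test against a 2-fold change, 12 with the replicate block and 15 to 23 when a library was left out. Tgfb1 changed sign when KO-1 was left out (leave-one-out range -0.71 to 0.17), and Tgfb2 when KO-2 was left out (-0.079 to 0.39). The ratio of the highest to the lowest member per kb in WT was 19.7, and 16.0 by the longest transcript. The GC correction shifted the median of all genes by -0.105 on the log2 scale, and the other scalings by at most 0.0401. After the GC correction and relative to that shift, Lrrc32 stood at 0.58 (0.34 in the main fit) and Tgfb3 at 0.39 (0.31). Tgfb2 stood at 0.13 (0.17), Tgfb1 at -0.14 (-0.21) and Tgfbi at -0.43 (-0.52). The cause of these changes was not tested.

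WT and KO libraries share the replicate numbers 1 and 2, but nothing in the labels ties a number to a litter, batch or day. Deviations from the group means correlated across genes at -0.131 for the libraries numbered 1 and -0.0178 for those numbered 2, so the replicate block is a check and not a pairing. No KO library has the number of WT-3 or WT-4, so in the block fit these libraries do not inform the KO estimate. That fit thus has less power, and in it the log2 fold change of Ltbp1 had an adjusted p of 0.455. With 2 KO libraries, a difference carried by 1 of them (Tgfb1, Tgfbi) cannot be told from the spread between libraries.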
